A study of Mus musculus with 2 samples.

Results

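Type 2 vomeronasal receptors (V2Rs) outside family C were taken as every gene whose symbol starts with Vmn2r, apart from Vmn2r1 to Vmn2r7, which are family C. The rule gave 117 of the 32285 genes counted, and these 117 genes are called members here. V2Rs are G protein-coupled receptors of class C with a large extracellular domain that binds peptides and proteins, among them pheromones shed in tears and urine. They are used by the basal vomeronasal sensory neurons (VSNs), which signal through Gαo, the product of Gnao1, while the apical VSNs use type 1 receptors (V1Rs) and Gαi2, the product of Gnai2. A basal neuron is known to use few members, usually with family C receptors beside them, which are shared by many basal neurons.

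The counts came from whole vomeronasal organ (VNO) of wild-type C57BL/6J males at postnatal day 60, of which 5 animals in total gave 2 libraries, with no treatment and no other genotype. The sources used here do not say which animals went into which library, so p-values measure only the spread between these libraries, which may be technical. Cells were frozen after enzymatic dissociation and captured in droplets, where a unique molecular identifier (UMI) marks each mRNA molecule from its 3′ end. Library 1 held 12814 barcodes and 108005626 UMIs and library 2 held 11270 barcodes and 95442231 UMIs. After the limits of the study on genes and on mitochondrial UMIs, 5694 and 4897 cells were kept, with medians of 6668 and 6649 UMIs, and 33 barcode sequences were found in both libraries (3 among kept cells).

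Groups of neurons were made without any receptor gene. Mature basal VSNs (46 cells of library 1 and 45 of library 2) lay in neuronal clusters and had more UMIs of Omp, the marker of mature neurons, than of Gap43, the marker of growing ones, with at least 2 Gnao1 UMIs and more Gnao1 than Gnai2. Mature apical VSNs (313 and 256 cells) had the reverse of Gnao1 and Gnai2. Immature basal cells (59 and 51) had Gap43, no more Omp than Gap43, at least 1 UMI of Tfap2e, the AP-2ε transcription factor of the basal lineage, and 0 of Meis2, and immature apical cells (195 and 164) had Meis2 and 0 Tfap2e. Cells of 1 library are not replicates, so tests compared UMIs summed per library and group. An unnamed cluster of 222 cells, 220 of them from library 1, and a cluster of 288 cells with both Omp and Cyp2a5, a supporting cell gene, stand apart and are given separately where they touch a result.

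Of the 117 members, 116 had a position in the GENCODE vM21 annotation of mm10, 52 of them on chromosome 7, 32 on chromosome 17, 11 on chromosome 5, 9 on chromosome 6, 8 on chromosome 10, 2 on chromosome 14, and 1 each on chromosomes 4 and X. Vmn2r122 had none. Of the members, 21 overlap another annotated gene, 9 of them on the same strand, among these Vmn2r30, Vmn2r59, Vmn2r88 and Vmn2r89. Part of their reads may fit both genes, and the effect on their counts was not tested. RefSeq windows from 250 bases before to 50 after the start of the gene (build GRCm38.p6) were at hand for 110 members. Several pairs of members are near copies of each other, also upstream of the gene, and 6 windows are shown because their genes carry results below: Vmn2r20 and Vmn2r22 (chr6:123418012-123418311 and chr6:123650586-123650885, both minus strand), Vmn2r39 and Vmn2r43 (chr7:9030633-9030932 and chr7:8260550-8260849, both minus strand), Vmn2r124 (chr17:18049234-18049533, plus strand) and Vmn2r25 (chr6:123853141-123853440, minus strand). Capitals mark TATAAA and TAATTA on either strand.
Vmn2r20: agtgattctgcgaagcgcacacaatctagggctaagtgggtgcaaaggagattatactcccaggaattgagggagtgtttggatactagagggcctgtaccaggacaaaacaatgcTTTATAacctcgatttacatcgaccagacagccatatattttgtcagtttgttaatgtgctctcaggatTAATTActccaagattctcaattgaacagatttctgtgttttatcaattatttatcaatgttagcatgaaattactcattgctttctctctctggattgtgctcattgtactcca
Vmn2r22: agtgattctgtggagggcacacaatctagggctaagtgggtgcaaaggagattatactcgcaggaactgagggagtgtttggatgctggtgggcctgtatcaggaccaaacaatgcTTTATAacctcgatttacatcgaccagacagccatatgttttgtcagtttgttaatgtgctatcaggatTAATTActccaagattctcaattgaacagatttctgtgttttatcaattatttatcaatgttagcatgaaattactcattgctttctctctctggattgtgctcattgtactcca
Vmn2r39: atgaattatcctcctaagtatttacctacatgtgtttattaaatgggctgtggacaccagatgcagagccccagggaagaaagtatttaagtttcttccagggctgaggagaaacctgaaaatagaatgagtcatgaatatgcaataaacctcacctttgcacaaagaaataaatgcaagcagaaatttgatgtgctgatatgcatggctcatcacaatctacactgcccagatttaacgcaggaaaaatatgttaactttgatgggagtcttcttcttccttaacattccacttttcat
Vmn2r43: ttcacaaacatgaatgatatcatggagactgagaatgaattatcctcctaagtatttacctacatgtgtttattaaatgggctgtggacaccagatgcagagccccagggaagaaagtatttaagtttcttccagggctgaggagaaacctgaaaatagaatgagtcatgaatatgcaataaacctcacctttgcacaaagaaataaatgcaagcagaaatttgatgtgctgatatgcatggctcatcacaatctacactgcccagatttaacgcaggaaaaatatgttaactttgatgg
Vmn2r124: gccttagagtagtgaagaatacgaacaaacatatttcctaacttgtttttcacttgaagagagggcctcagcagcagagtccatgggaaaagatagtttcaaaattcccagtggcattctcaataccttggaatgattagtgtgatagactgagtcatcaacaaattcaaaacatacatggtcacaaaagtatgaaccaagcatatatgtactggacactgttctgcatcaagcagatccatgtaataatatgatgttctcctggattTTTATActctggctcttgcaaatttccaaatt
Vmn2r25: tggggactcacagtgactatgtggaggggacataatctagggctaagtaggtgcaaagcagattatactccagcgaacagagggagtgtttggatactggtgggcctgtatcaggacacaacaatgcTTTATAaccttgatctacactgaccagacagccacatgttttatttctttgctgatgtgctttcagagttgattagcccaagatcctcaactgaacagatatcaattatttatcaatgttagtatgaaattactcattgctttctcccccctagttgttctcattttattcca

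The windows of Vmn2r20 and Vmn2r22 matched at 288 of 300 aligned bases (96.0%). Those of Vmn2r39 and Vmn2r43 overlapped over 266 bases and matched at all 266, while the median over all 5995 pairs of member windows was 12 matching bases. TAATTA, the core bound by many homeodomain factors, was in 19 of 110 windows (17.3%) against 5.31% of all 27025 windows. TATAAA was in 26 (23.6%) against 14.2%, CAGCTG, an E-box, in 11 (10.0%) against 16.1%, and GCCNNNGGC, the AP-2 core, in 7 (6.36%) against 16.5%. These 4 strings were searched on both strands and may overlap by a few letters, and a match is not a binding site. The shares were not adjusted for base composition, and windows that are near copies are not independent. The differences from all windows were therefore not tested.

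To see which member each basal neuron used, the member with the most UMIs in a cell was called its leading member where the cell had at least 10 member UMIs. This held for 82 of 91 mature basal VSNs, and 47 of the 117 members led at least 1 of them. In library 1, 27 members led, in library 2, 31, and 11 led in both. Of the 47, 25 led 1 neuron, 13 led 2 and 9 led 3 or more. Over all deposited barcodes with at least 200 genes (23963), 594 had at least 10 member UMIs, 91 members led at least 1 of those and 58 led in both libraries. The 26 members that led none had at most 98 UMIs in any barcode (Vmn2r52), and 2 of them, Vmn2r19 and Vmn2r62, had 0 UMIs in all barcodes.

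**Figure D1:**
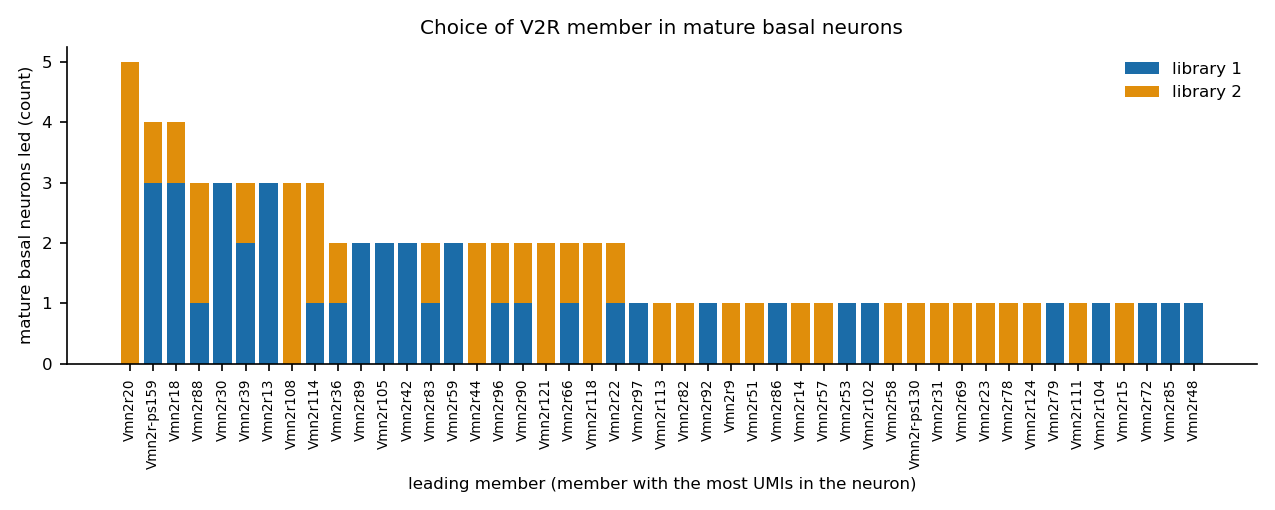
Number of mature basal VSNs led by each of the 47 members that led at least 1, by library (library 1 blue, library 2 orange). Vmn2r20 led 5 neurons, all of library 2, and 25 members led 1 neuron each.

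Vmn2r20 led the most mature basal neurons, 5, all in library 2, with 10, 13, 16, 206 and 245 UMIs. Vmn2r18 led 4 neurons, with 84, 131 and 155 UMIs in library 1 and 106 in library 2. Vmn2r-ps159, a pseudogene by its symbol but protein-coding in the GENCODE annotation, led 4, with 95, 143 and 350 UMIs in library 1 and 121 in library 2. The 6 members that led 3 neurons were Vmn2r13, Vmn2r30, Vmn2r39, Vmn2r88, Vmn2r108 and Vmn2r114. In Vmn2r88 and Vmn2r30 the level was alike from neuron to neuron, in Vmn2r13 (107, 115 and 221 UMIs) and Vmn2r108 (30, 112 and 122) less so. Vmn2r88, a receptor known to respond to hemoglobin, had 449 UMIs in its neuron of library 1 and 427 and 448 in those of library 2. Vmn2r30 had 326, 347 and 417 UMIs, all in library 1. Vmn2r114 had 54 UMIs in library 1 and 42 and 79 in library 2. These UMIs are not scaled to the total of the cell, and neurons are not replicates, so members were not compared in level. The highest level in any mature basal neuron was 823 UMIs of Vmn2r36, and its other neuron had 25. The 10 members with the most UMIs held 49.8% of the 14512 member UMIs of mature basal VSNs, so summed levels follow a few neurons.

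By chromosome, 26 of the 82 neurons with a leading member (31.7%) were led by members on chromosome 7, which holds 44.4% of members, and 22 (26.8%) by those on chromosome 17, which holds 27.4%. The single member on chromosome 4, Vmn2r-ps159, led 4 neurons, the pair on chromosome 14, Vmn2r88 and Vmn2r89, led 5, and Vmn2r121 on the X chromosome led 2.

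Several members have known ligands. Vmn2r116, the receptor of the male tear peptide ESP1, had 1 UMI in mature basal VSNs of library 1 and 0 in library 2, but led 2 immature basal cells of library 1, with 35 and 66 UMIs, and 7 barcodes over all, all from library 1. Vmn2r115, known as the receptor of ESP22 from juvenile tears, had 0 UMIs in all groups of basal neurons and led 6 barcodes over all, 3 in each library. Vmn2r65, known to respond to a cue of pups, led 11 barcodes (5 and 6), none of them among kept cells. Vmn2r26, known to respond to peptides bound by MHC molecules, led 2, both in library 2, and Vmn2r81 led 3. Vmn2r9 led 1 mature basal neuron, of library 2, with 201 UMIs. Vmn2r26, Vmn2r65, Vmn2r81 and Vmn2r115 had 0 UMIs in the 91 mature basal VSNs, which allows a share of such neurons with a UMI of up to 3.30%.

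In most basal neurons 1 member held nearly all member UMIs. In the 82 mature basal VSNs with at least 10, the leading member held a median of 100% of member UMIs, 58 neurons (70.7%) had UMIs of 1 member alone, and 72 (87.8%, exact 95% binomial interval 78.7 to 94.0%) had at least 80% from 1 member. The share at or above 80% was 92.5% in library 1 (37 of 40) and 83.3% in library 2 (35 of 42). A neuron had a median of 143.5 member UMIs, 0.902% of all its UMIs, and at most 824 or 4.03%. Binomial and Poisson intervals here cover counting error only. V1Rs were all but absent, with at least 10 V1R UMIs in 1 of the 82. Of the other 9 mature basal VSNs, 6 had 0 member UMIs at a median of 12514 UMIs per cell and 87 family C UMIs in all, and 3 had between 1 and 9 member UMIs.

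**Figure D2:**
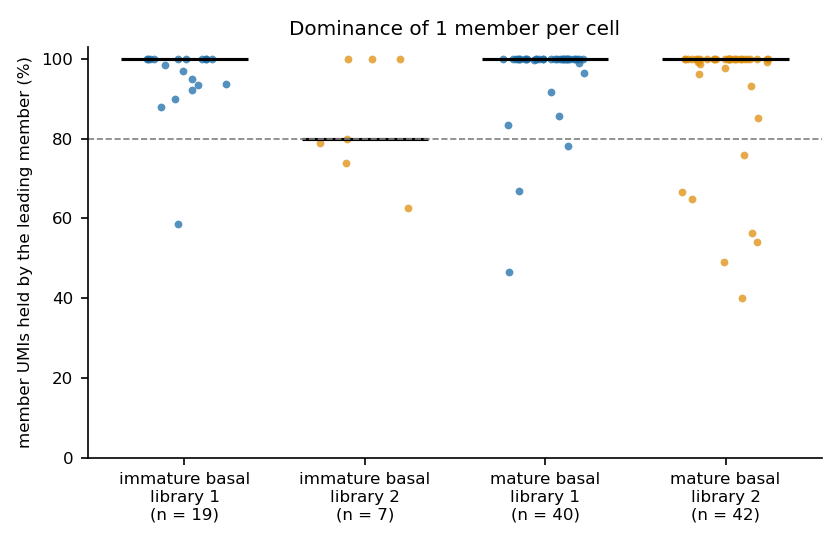
Percent of member UMIs held by the leading member in each basal cell with at least 10 member UMIs, by stage and library. Points are cells, black lines are medians and the dashed line is 80%. The medians of mature basal VSNs lie at 100% in both libraries, and the 7 immature basal cells of library 2 have a median of 80% and a lowest value of 62.5%.

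A further member with at least 3 UMIs and at least 10% of member UMIs was found in 11 of the 82 mature basal VSNs. Only the second-ranked member was looked at, and with the leading member it always made 1 of 5 pairs. These were Vmn2r20 with Vmn2r22 (4 neurons), Vmn2r39 with Vmn2r43 (3), Vmn2r-ps159 with Vmn2r122 (2), Vmn2r121 with Vmn2r122 (1) and Vmn2r36 with Vmn2r48 (1). Beside Vmn2r20 and Vmn2r22, Vmn2r21 also met both limits, with 7 of 25 and 3 of 15 member UMIs. In the neuron with Vmn2r121 and Vmn2r122, these held 85 and 26 of 151 member UMIs, and 5 members had UMIs in all. In 8 of the 11 the pair shared some transcript stretches of 90 bases, and the other 3 include Vmn2r122, which had no transcript to compare. Vmn2r39 shared 61.1% of its 90-base stretches with Vmn2r43, which shared 78.8% of its own with Vmn2r39. Wherever Vmn2r39 led, Vmn2r43 was there at a lower level, with 208 and 57 UMIs, 123 and 58, and 125 and 67, and Vmn2r43 led no barcode of the series. Only 10.7% of the stretches of Vmn2r43 were found in no other gene's transcripts, and none of those in its last 500 bases. Reads were not examined, so whether its counts come from transcripts of Vmn2r43 or of Vmn2r39 was not tested.

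Vmn2r20 and Vmn2r22 shared less, 3.81% of the stretches of Vmn2r20 and 8.34% of those of Vmn2r22, and none within the last 500 bases of either, near the 3′ end that the library reads. Vmn2r21 shared 68.7% of its stretches with Vmn2r20. Vmn2r20 and Vmn2r22 both had UMIs in all 8 mature basal VSNs that had either. In the neurons with 206 and 245 Vmn2r20 UMIs, Vmn2r22 had 8 and 6. In the neuron led by 55 Vmn2r22 UMIs, Vmn2r20 had 4. In 4 others the total was low and mixed: 13, 10 and 1 UMIs of Vmn2r20, Vmn2r22 and Vmn2r21, 16, 7 and 1, 10, 8 and 7, and, in library 1, 5, 7 and 3. These 4 neurons, chosen after their values were seen, had no other member above 0 and 3 to 11 Vmn2r1 UMIs each. Their 15 to 25 member UMIs lay far below the median of 143.5.

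The cluster with Omp and Cyp2a5 showed another pattern. Its 288 cells had a median of 28444.5 UMIs and a mean of 17.5 Cyp2a5 UMIs, against 0.220 in mature basal VSNs. Of its 81 cells with at least 10 member UMIs, 55.6% had at least 80% from 1 member, 66 also had at least 10 V1R UMIs, and 39 had a further member, 5 of these in pairs that share stretches. Scrublet called 2 of the 288 cells doublets. This cluster is in no group of neurons here.

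Between mature basal and mature apical VSNs, members were higher in basal cells. Of 117 members, 65 had a UMI in either group and 51 reached the minimum of 10 UMIs for a test. By edgeR's quasi-likelihood test, 15 of the 51 were higher in basal VSNs and 0 lower (adjusted p under 0.05), where 4.01% of all 12827 genes tested were called higher and 2.64% lower. An unadjusted p under 0.05 was reached by 46 of the 51. The 51 had a median log2 difference of 10.97, against -0.07 for all genes. As members reached 10 UMIs almost always through basal cells, they had to differ, and the count is no more than a description. With the library as a replicate block, since both groups came from the same captures, 50 of 51 were higher. Of all 12827 genes, 1277 were then called higher and 1170 lower.

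The members called rest on 1 to 5 cells per library. Vmn2r88 had 449 UMIs in basal VSNs of library 1 and 883 in library 2, and 1 in apical VSNs of each library, a ratio of 3409 (counting interval 942 to 28176; adjusted p = 0.00046 by edgeR's quasi-likelihood test). Vmn2r36 had 825 and 25 against 0 and 1 (adjusted p = 0.045). Vmn2r39 had 331 and 125 against 0 and 0, at least 778-fold higher by a floor of 3 UMIs over the apical group (adjusted p = 0.0053). Vmn2r83 had 260 and 125 and Vmn2r96 had 93 and 196, both against 0, at least 657-fold and 493-fold higher. Vmn2r90, Vmn2r43 and Vmn2r114 had 124 and 106, 115 and 67, and 54 and 121 UMIs against 0, at least 392.4-, 311- and 299-fold higher. In these 8 the basal and apical libraries did not overlap. They were chosen as called and changed alike in both libraries, so this adds no support. All 15 members called had UMIs in both basal libraries, and Vmn2r30, with 1090 and 1 UMIs against 0, was not called (adjusted p = 0.12 by edgeR).

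Other genes of basal neurons were compared in the same fit, where the median over all genes was -0.07. All 6 family C genes tested were higher in mature basal VSNs, from 3.30 (SE 0.24) for Vmn2r3 to 10.14 (SE 0.76) for Vmn2r4 on the log2 scale (median 6.17). Of the H2-Mv genes with their partner B2m, 6 of 9 tested were higher (median 8.63). H2-Mv genes encode non-classical MHC class I molecules of basal neurons. Of 10 ER chaperones, which fold membrane proteins, 7 were higher (median 1.26), such as Sdf2l1 by 2.81 (SE 0.14) and Creld2 by 2.80 (SE 0.20), and Calr was lower by -2.28 (SE 0.17). Of 9 basal signalling and identity genes not used as gates, 4 were higher (median 0.45), among them Robo2, an axon guidance receptor, by 5.12 (SE 0.33), and Rtp1 was lower at -7.04 (SE 0.19). All 3 apical genes tested, Meis2, Nrp2 and Pde4a, were lower (median -3.61).

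Vmn2r124 differed from most other members in where it was found. It was the leading member of 7 mature apical VSNs, 6 in library 1 with 26, 27, 30, 48, 54 and 125 UMIs and 1 in library 2 with 43. In each of the 7 it held at least 96.3% of member UMIs, Gnai2 had 25 to 85 UMIs, Gnao1 and family C had 0, and V1Rs had at most 2. In mature basal VSNs it led 1 neuron, of library 2, with 100 UMIs and family C UMIs beside it. Summed levels of Vmn2r124 were 0 and 100 UMIs in basal and 310 and 49 in apical VSNs, so the libraries overlapped and ran in opposite directions (log2 difference 0.69, SE 1.30, adjusted p = 0.81). Over all deposited barcodes, Vmn2r124 led 55, more than any other member (29 in library 1, 26 in library 2), ahead of Vmn2r42 and Vmn2r20 with 28 each. With the mitochondrial limit at 10%, it led 14 mature apical VSNs (9 and 5), 0 of them with family C UMIs and 1 with at least 10 V1R UMIs. At that limit it also led 4 mature basal VSNs (1 and 3), all with Gnao1 and family C UMIs. Of the 55 barcodes, 29 lay outside neuronal clusters, 23 of them with family C and 18 with Gnao1 UMIs.

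At the 5% limit only 4 other mature apical VSNs had at least 10 member UMIs, led by Vmn2r15, Vmn2r20, Vmn2r23 and Vmn2r59. The first 3 of these had 339, 256 and 121 V1R UMIs. Those led by Vmn2r15 and Vmn2r20 lay in the mature cluster with raised Gnao1. They had 15 and 8 Gnao1, 5 and 5 Tfap2e, and 14 and 5 family C UMIs. The cell led by Vmn2r59 had 0 V1R UMIs, 4 of Gnai2, 1 of Gnao1 and 3 of family C. It lay in the cluster of neural precursors or progenitors and passed as mature on 1 Omp UMI. With the mitochondrial limit at 10%, 11 mature apical VSNs (8 and 3) were led by other members. Of these, 8 had at least 10 V1R UMIs, 11 had family C and 10 had Gnao1 UMIs. At that limit Vmn2r79 led 6 mature neurons, of which 4 had more Gnai2 than Gnao1, all 4 with at least 10 V1R UMIs. Vmn2r124 in apical cells was noticed in these data, and no test was run on it beyond the fit above.

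The first cells with many member UMIs were immature. Neural precursors (87 cells with Neurog1 or Neurod1 and neither Tfap2e nor Meis2) had 3 member UMIs in all, 3.65 per 1000000 UMIs of the group (CPM), with 1.94 in library 1 and 6.51 in library 2. In immature basal cells with 0 Omp UMIs, members made 957 CPM (1341 and 538), and 55.7% of 97 cells had a member UMI (exact 95% interval 45.2 to 65.8%). In the 13 immature basal cells with an Omp UMI it was 8677 CPM (9101 in 10 cells and 7213 in 3), and all 13 had one. Mature basal VSNs reached 9433 CPM (10868 and 7975), with a member UMI in 93.4% (86.2 to 97.5%). The order was the same in both libraries, and levels with and without Omp did not overlap, while those of immature cells with Omp and of mature VSNs differed less than the mature libraries did from each other. Thinned to 6456 UMIs per cell, the shares were 49.5% without Omp and 93.3% in mature VSNs. On the apical side, members made 69.6 CPM in immature and 104.0 CPM in mature VSNs, and Vmn2r124 held 43.8% of the latter. Among immature apical cells, 6 had at least 10 member UMIs. Those led by Vmn2r-ps159, Vmn2r42, Vmn2r74 and Vmn2r84, with 15, 57, 23 and 54 member UMIs, were called doublets by Scrublet. These cells and the cell led by Vmn2r114, with 35, had more Gnao1 than Gnai2 UMIs, so the immature apical level may not be that of apical neurons.

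**Figure D3:**
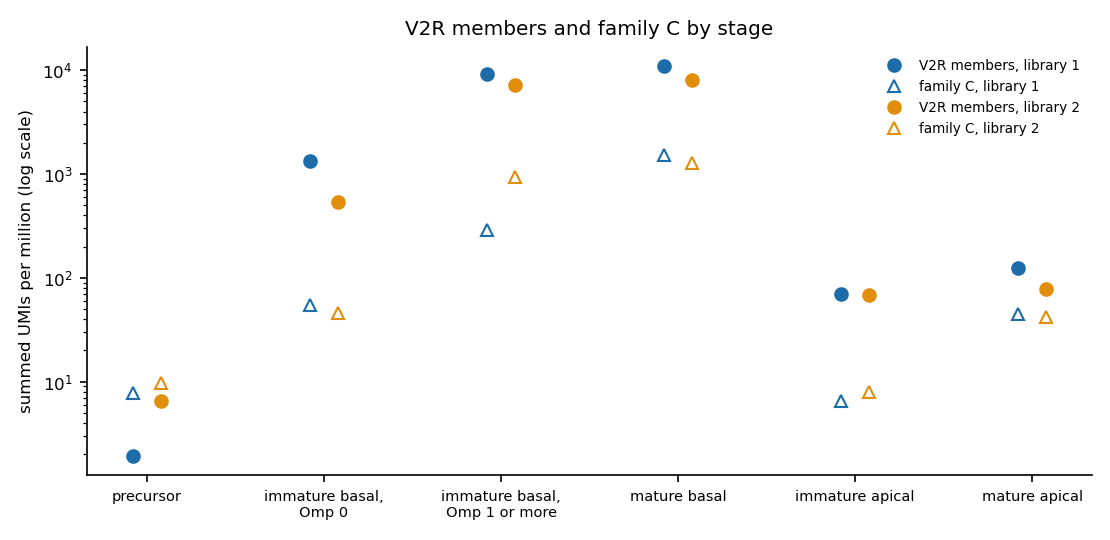
Summed UMIs per 1000000 (log scale) of members (filled circles) and of family C receptors (open triangles) by stage in library 1 (blue) and library 2 (orange). Members rise from under 10 CPM in precursors to over 500 CPM in immature basal cells without Omp in both libraries, where family C had 54.6 and 45.4 CPM.

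From the immature stage on, family C receptors were below the members. In precursors they made 8.52 CPM, above the members' 3.65, in immature basal cells without Omp 50.2 CPM, with Omp 436 CPM, and in mature basal VSNs 1416 CPM. The ratio of members to family C was 19.1 (24.6 in library 1 and 11.8 in library 2) without Omp, 19.9 (31.2 and 7.70) with Omp and 6.66 (7.05 and 6.19) in mature VSNs. In precursors it was 0.429, from 3 member and 7 family C UMIs. Both libraries had a higher ratio in immature basal than in mature cells, by little in library 2 for cells with Omp. Among immature basal cells without Omp, 18.6% had a family C UMI against 55.7% with a member UMI.

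Of the 110 immature basal cells, 26 had at least 10 member UMIs, and in these the leading member held a median of 99.3%, with 1 member alone in 13. In 22 of the 26 (84.6%, 65.1 to 95.6%) it held at least 80%, with 18 of 19 cells in library 1 and 4 of 7 in library 2. In 25 cells with 2 to 9 member UMIs, 8 had 1 member alone. A further member as defined above was found in 6 cells, of which 2 pairs, Vmn2r35 with Vmn2r87 and Vmn2r41 with Vmn2r94, shared no stretch, at 3 and 16 and at 4 and 10 UMIs. In a cell of library 1, Vmn2r122 and Vmn2r-ps159 held 27 and 9 of 46 member UMIs, and 4 members had UMIs in all. In immature basal cells 22 members led, 9 of which also led mature basal VSNs, and together 60 of 117 members led a basal cell of either stage.

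Against immature apical cells, 68 members had a UMI in either group and 28 reached 10 UMIs. Of these, 19 were higher in immature basal cells and 0 lower, where 2.5% of 12294 genes tested were called higher and 2.6% lower, and again they reached the minimum mostly through basal cells. In 10 of the 19 both libraries moved alike. Vmn2r122 had 28 UMIs in library 1 and 162 in library 2 against 0 and 1 (adjusted p = 0.00033 by edgeR). Vmn2r89 had 53 and 15 against 0 and 1 (adjusted p = 7.38e-05 by edgeR). Vmn2r20 had 232 and 1, Vmn2r78 had 158 and 1, and Vmn2r35 had 125 and 3, each against 0, at least 254-, 173- and 140-fold higher, but library 2 gave only 1 to 3 UMIs. These values rest on single cells. In library 1, 232 UMIs of Vmn2r20, 157 of Vmn2r78, and 63 and 62 of Vmn2r35 came from 1 cell each. So did 50 of Vmn2r89 in library 1, and 27 of Vmn2r122 in library 1 and 159 in library 2. Vmn2r116 had 101 and 1 against 0 and 1, Vmn2r41 had 29 and 4 against 0, and Vmn2r87 had 1 and 16 against 0. The 3 members with the most UMIs in immature basal cells, Vmn2r88 (298), Vmn2r95 (257) and Vmn2r80 (254), had all of them in library 1, where 294, 255 and 254 came from 1 cell each. By DESeq2, 5 members were higher, namely Vmn2r41, Vmn2r80, Vmn2r89, Vmn2r95 and Vmn2r122, and 5 of the 8 members listed by their change, Vmn2r20, Vmn2r35, Vmn2r78, Vmn2r87 and Vmn2r116, lost the call. Of all 12294 genes, 185 were higher and 146 lower by DESeq2. With the replicate block 1 member, Vmn2r84, was lower (0 and 0 UMIs against 0 and 54), and with no filter on low counts Vmn2r74 (0 and 0 against 23 and 0) was lower as well, each from 1 apical cell that Scrublet called a doublet. Of the other genes, 4 of 5 family C genes and 6 of 10 ER chaperones were already higher on the basal side at this stage. B2m was also higher, as were H2-M10.1 (0 and 74 UMIs against 0 and 0) and H2-M10.6 (1 and 26 against 0 and 2), which rest on library 2, where 1 cell led by Vmn2r122 held 110 H2-Mv UMIs.

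Between mature and immature basal cells, 79 members had a UMI and 62 were tested. Of these, 11 were higher in mature VSNs and 5 lower, where 12.8% of 10491 genes tested were called higher and 11.9% lower. The members' shares in this fit, 17.7% and 8.06%, are near that background. Members that reached 10 UMIs through 1 stage alone, such as Vmn2r18 and Vmn2r35, could only be called higher in that stage. The calls and fold bounds given here are therefore no more than a description. With the replicate block 46 were higher and 13 lower, where 1684 and 1551 of the 10491 genes were. By DESeq2 9 were higher and 1, Vmn2r41, lower, where 709 and 612 of all genes were. With no filter on low counts 8 were higher and 0 lower (21 members at an unadjusted p under 0.05). Of all 15428 genes tested without the filter, 769 were higher and 649 lower. Vmn2r18 (370 and 106 against 0 and 0), Vmn2r43 (115 and 67 against 0 and 0) and Vmn2r66 (86 and 70 against 0 and 0) were at least 110-, 42.1- and 36.0-fold higher. Vmn2r48 was also higher (22 and 24 against 0 and 0). Vmn2r39 had 331 and 125 against 0 and 1, Vmn2r96 had 93 and 196 against 1 and 0, Vmn2r114 had 54 and 121 against 1 and 0, and Vmn2r30 had 1090 and 1 against 3 and 0. Vmn2r35 was at least 61.5-fold lower (0 and 0 against 125 and 3), and Vmn2r116 (1 and 0 against 101 and 1) and Vmn2r41 (0 and 1 against 29 and 4) were lower. Single immature cells of library 1 held 63 and 62 UMIs of Vmn2r35, 35 and 66 of Vmn2r116 and 29 of Vmn2r41. Vmn2r80 and Vmn2r95 were also called lower, from library 1 alone. The members called higher were in 1 to 3 mature cells of a library. All 6 family C genes tested and 6 of 10 ER chaperones were higher in mature VSNs, with Calr (-2.38) and Pdia4 (-3.35) lower on the log2 scale.

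Basal neurons fell into 2 kinds by family C receptor, and most leading members were found with 1 kind. Of the mature basal VSNs with a leading member, 77 had at least 3 family C UMIs. In 27 most of these were of Vmn2r1, and in 50 of Vmn2r2 to Vmn2r7 (2 ties included). Vmn2r1 was alone in 22, Vmn2r2 to Vmn2r7 alone in 41, and 14 had both. A total of 65 had a Vmn2r1 share of at least 90% or at most 10%. Of 21 members that led at least 2 of these neurons, 20 led neurons of 1 kind, the exception being Vmn2r108. The 2 ties, of 3 and 3 UMIs, were neurons of Vmn2r44 and Vmn2r118, which count among the 20 only with ties placed as here. With the mitochondrial limit at 10% it was 25 of 28, the exceptions being Vmn2r108, Vmn2r78 and Vmn2r79. As neurons with the same leading member can come from the same animal, this is a description.

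**Figure D4:**
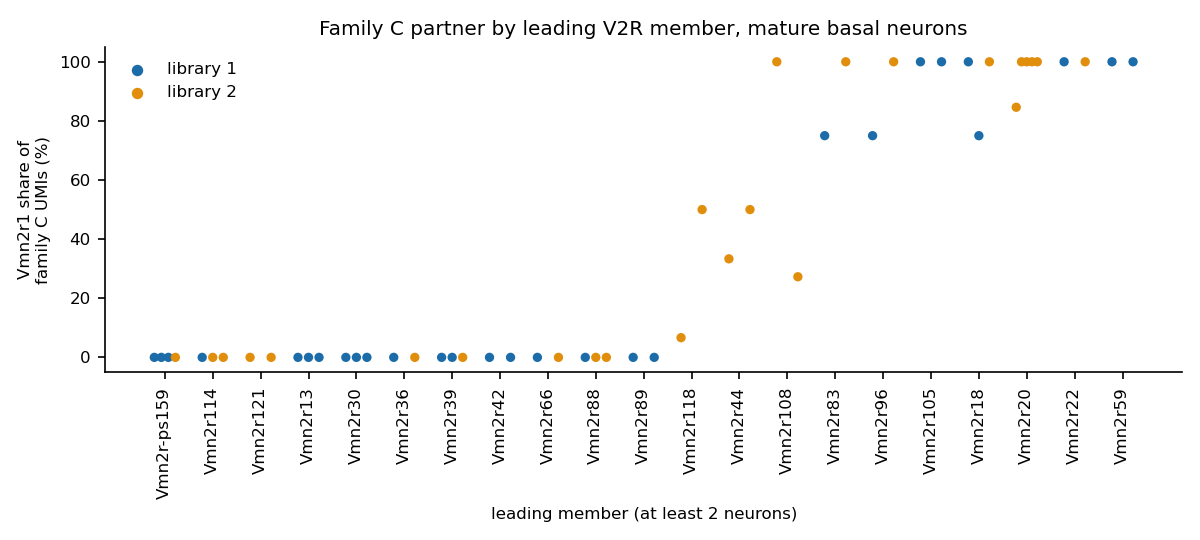
Percent of family C UMIs that were of Vmn2r1 in each mature basal VSN with at least 3 family C UMIs, for the 21 members that led at least 2 such neurons. Points are neurons, coloured by library. In 11 members all neurons lie at 0%, and Vmn2r108 has a neuron on each side.

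Vmn2r20, Vmn2r18, Vmn2r22, Vmn2r59, Vmn2r83, Vmn2r96 and Vmn2r105 led neurons with Vmn2r1. In the 5 neurons of Vmn2r20, 38 of 40 family C UMIs were of Vmn2r1. Vmn2r-ps159, Vmn2r13, Vmn2r30, Vmn2r36, Vmn2r39, Vmn2r42, Vmn2r66, Vmn2r88, Vmn2r89, Vmn2r114 and Vmn2r121 led neurons of the other kind, in which Vmn2r1 had 0 UMIs. Vmn2r88 neurons had 195 family C UMIs of Vmn2r2 to Vmn2r7 and 0 of Vmn2r1, and Vmn2r-ps159 neurons had 265 and 0. Vmn2r118 and Vmn2r44 led neurons with both, with 4 of 21 and 4 of 9 family C UMIs from Vmn2r1. H2-Mv genes were found mostly beside Vmn2r2 to Vmn2r7. Neurons with mostly Vmn2r1 had a median of 0 H2-Mv UMIs, and 3 of 27 had at least 3, while the others had a median of 16, and 39 of 50 had at least 3. In library 1 it was 1 of 13 against 24 of 25, and in library 2 it was 2 of 14 against 15 of 25. The Vmn2r-ps159 neurons had 171 to 321 H2-Mv UMIs each. The 3 exceptions with Vmn2r1 were the neurons led by Vmn2r82 (287 H2-Mv UMIs) and Vmn2r92 (31) and 1 neuron of Vmn2r20 (109).

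The windows upstream of members of the 2 kinds were compared over the neurons kept at a mitochondrial limit of 10%, with members that led both kinds left out. TATAAA was in 9 of 16 windows (56.2%) of members leading neurons with mostly Vmn2r1, as in those of Vmn2r20 and Vmn2r22 above, and in 3 of 28 (10.7%) of the others, against 23.6% of all member windows. TAATTA was in 4 of 16 and 6 of 28, CAGCTG in 3 of 16 and 3 of 28, and GCCNNNGGC in 1 of 16 and 5 of 28. Members of the first kind lay on chromosome 17 in 8 of 16 cases and on chromosome 7 in 3, those of the second in 5 and 14 of 29. Related members share sequence and place, so these shares are not independent and were not tested.

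Outside neuronal clusters, members were found at a low level nearly everywhere. The 9092 cells outside made 193 CPM of members (170 in library 1 and 219 in library 2), but 99 cells with at least 10 member UMIs held 92.9% of the 13706 UMIs, 81 of them in the cluster with Omp and Cyp2a5. Without those 99 cells it was 14.5 CPM, and in the 8091 cells with 0 Omp UMIs 16.1 CPM. By named class of cells, apart from a low-UMI cluster led by tuft genes, the level ran from 3.19 CPM in gland cells (median of 18384.5 UMIs) to 20.6 CPM in ciliated cells (1100.5 UMIs). Monocytes had 0 member UMIs in 122 cells, which allows a share of cells with a UMI of up to 2.46%. The highest of these levels is 0.218% of the 9433 CPM of mature basal VSNs.

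**Figure D5:**
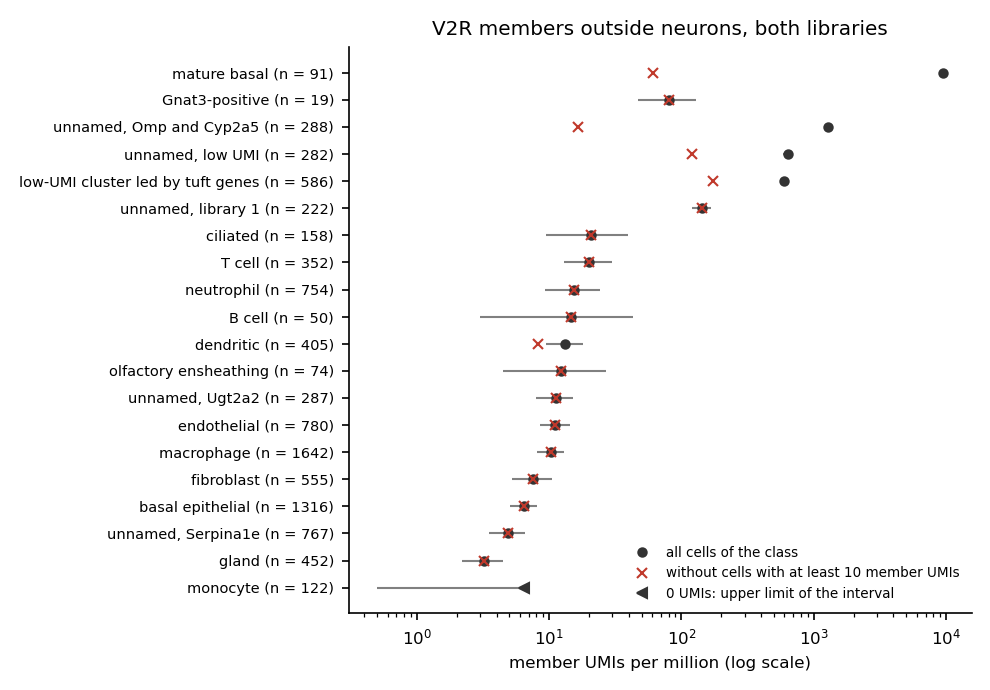
Member UMIs per 1000000 (log scale) in each class of cells outside neurons, in Gnat3-positive cells and in mature basal VSNs, both libraries summed. Circles are all cells with exact 95% Poisson intervals (counting error only), red crosses leave out cells with at least 10 member UMIs, and the triangle is the upper bound for monocytes. Named classes lie between 3.19 and 20.6 CPM, apart from the low-UMI cluster led by tuft genes at 593 CPM.

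In the low-UMI cluster led by tuft genes (586 cells, median 1124 UMIs), members made 593 CPM, of which 6 cells held 74.5%. A barcode of library 2 among them held 202 UMIs of Vmn2r9, with 48078 UMIs in all, 88 V1R UMIs, 22 of Gap43, 17 of Cyp2a5 and 0 of Gnat3. It also held 15 family C UMIs, 6 of Gnao1, 18 of Gnai2 and 3 of Omp. Trpm5, a channel of tuft cells, was in 5 of the 586 cells. In another unnamed cluster (282 cells, median 1138 UMIs) members made 643 CPM, of which 11 cells held 82.0%. Members with the highest level outside neurons relative to mature basal VSNs were Vmn2r76 (416 UMIs, 243 of them in 1 cell), Vmn2r17 (302, at most 110 in a cell), Vmn2r93 (264), Vmn2r120 (202, of which 185 in 1 cell) and Vmn2r45 (339, of which 254 in 1 cell). In cells with 0 Omp UMIs these had 1, 80, 6, 9 and 9 UMIs.

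Gnat3, which encodes gustducin, the G protein of taste and solitary chemosensory cells, was used to gate such cells. Outside neuronal clusters 19 cells had at least 2 Gnat3 UMIs, 16 in library 1 and 3 in library 2, and Vmn2r9 had 0 UMIs in them, which allows a share of up to 15.8%. With the mitochondrial limit at 10%, 115 cells passed the gate and Vmn2r9 again had 0 UMIs (up to 2.61%). All members together had 17 UMIs in the 19 cells, 80.03 CPM (46.6 to 128, exact Poisson; 90.8 in library 1 and 27.6 in library 2), in 10 of them. Of these UMIs, 15 came from 12 cells of library 1 in the unnamed cluster of 222 cells, and 10 of those 12 cells had an Omp UMI. That cluster was led by Myh11, a smooth muscle gene, and Gnat3, and Vmn2r31 was in 39 and Vmn2r96 in 32 of its cells. With at least 4 Gnat3 UMIs, 8 cells remained, with 2 member UMIs (15.8 CPM). This is near the level outside neurons once cells with at least 10 member UMIs are left out, and below that of all such cells.

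Against all other cells outside neurons, 62 of the 94 members with a UMI were tested, and 2 were higher in Gnat3-positive cells and 0 lower, where 0.611% of 17842 genes were called higher and 0.381% lower. Vmn2r31 had 6 and 0 UMIs against 45 and 30 (log2 difference 4.44, SE 0.82, adjusted p = 0.011), and Vmn2r40 had 5 and 0 against 12 and 2 (6.57, SE 1.27, adjusted p = 0.014). All 11 UMIs came from library 1 and from the unnamed cluster. With the replicate block 0 were called (3 at an unadjusted p under 0.05), and 0 were called with at least 4 Gnat3 UMIs or without cells holding Omp (2 and 1 at an unadjusted p under 0.05). The part of that cluster in the call was not tested beyond this. The median log2 difference of the 62 members was -7.59 by edgeR and 0.35 by DESeq2 (all genes -0.87 and 0.06), so no direction is given for the members as a set. No family C gene and no H2-Mv gene was called, and B2m was lower (-1.76, SE 0.36, adjusted p = 0.023 by edgeR).

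Vmn2r25, singled out after its values were seen, had UMIs in Gnat3-positive cells of both libraries. At the 5% mitochondrial limit it had 1 UMI in each library there (adjusted p = 0.63 by edgeR). At 10% it had 11 UMIs in 77 cells of library 1 and 8 in 38 cells of library 2 (11.6 and 13.99 CPM), against 52 and 46 UMIs in all other cells outside neurons (0.648 and 0.650 CPM), of which 47 and 46 lay in 1 cell each. By edgeR it was higher at that limit (log2 difference 4.21, adjusted p = 9.58e-05), where 8.01% of 19223 genes tested were called higher and 13.8% lower. Vmn2r31 was the other member called higher at this limit, and 12 members were lower. Without cells holding Omp the counts were 10 and 8 against 3 and 0. In 79 cells with at least 4 Gnat3 UMIs, of which 75 had Trpm5, Vmn2r25 was in 15 (18.99%, 11.03 to 29.4%; 10 of 45 and 5 of 34), at 1 to 4 UMIs each and a median of 14311 UMIs per cell. In gland cells, at a median of 12803 UMIs, it was in 1 of 542 (0.185%). It had 0 UMIs in mature and immature basal cells and led 2 barcodes of the series. Vmn2r25 (chr6:123821646-123853463, minus strand) overlaps Vmn2r24 on the other strand in the annotation. Why 115 cells passed the Gnat3 gate at the 10% limit and 19 at the 5% limit was not tested.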

How the data were processed

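Whole vomeronasal organ cells of 2 libraries were measured by droplet RNA sequencing. The authors demultiplexed reads with bcl2fastq, aligned them to mm10 and made UMI counts per gene and barcode with Cell Ranger 4, and deposited raw counts of both libraries in 1 table. Whether intronic reads were counted is not stated. Library depths stand in the report.

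Members and gene lists were chosen with earlier results of these data known. Cells with 200 to 9000 genes and under 5% mitochondrial UMIs were kept and clustered with Seurat 5.3.0 (2000 variable genes, 30 components, resolution 0.8) in R 4.3.3. Scrublet in scanpy 1.11.5 called 68 and 117 doublets (1.19 and 2.39%), which were kept and left out as an alternative. UMIs summed per library and group were tested with edgeR 4.0.16 (quasi-likelihood, Benjamini-Hochberg over all genes with at least 10 UMIs), with 2 sums per group. DESeq2 1.42.0 was an alternative. The test was checked on simulated counts. Intervals were exact (scipy 1.17.1). The text names members with known ligands, the 12 that led the most mature basal neurons, the 6 with the most UMIs in immature basal cells, up to 8 called per comparison and direction with the largest change alike in both libraries, up to 5 highest outside neurons relative to basal neurons, and co-detected pairs. Other members named, such as Vmn2r124 and Vmn2r25, were chosen after their values were seen.

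Both groups of a comparison came from the same capture, which the library number marks, so the numbers pair the sums. The deviations of same-numbered sums correlated at 0.06, 0.07, 0.01 and 0.01 in the 4 comparisons.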

Additional observations from a re-analysis of the deposited data

Results flagged for a closer look

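Vmn2r114 differed in direction between stages. Its basal minus apical level, as a mean of the libraries, was 114 CPM in mature and -5.55 CPM in immature neurons, and both libraries were higher in basal cells when mature and lower when immature. The difference between the stages was not tested. Of the immature apical UMIs, 24 lay in 1 cell of library 1, which had 10 Gnao1 and 1 Gnai2 UMIs, and 1 in library 2.

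Member UMIs were also found in barcodes that the limits on genes and mitochondrial UMIs left out. Of 13372 such barcodes, 339 had at least 10 member UMIs (186 in library 1 and 153 in library 2), against 255 among kept cells. In 85.8% of the 339, 1 member held at least 80% of member UMIs, 69 members led at least 1, and 173 had at least 10 V1R UMIs as well. There were 11 members that led only barcodes of this kind: Vmn2r65 led 11 with up to 280 UMIs, Vmn2r73 led 6, Vmn2r34 and Vmn2r60 led 4 each, Vmn2r100 led 3, Vmn2r26 and Vmn2r54 led 2 each, and Vmn2r16, Vmn2r37, Vmn2r98 and Vmn2r112 led 1 each.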

How the results depend on the processing

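With 2 libraries and few neurons per member, counts of called members moved with the test. Mature basal against apical, main count 15, became 50 with the replicate block, 46 with no filter on low counts and 34 with DESeq2. Over all genes, 514 were called higher and 339 lower of 12827 in the main fit. These became 1277 and 1170 with the block, 647 and 621 of 17175 with no filter, and 615 and 318 with DESeq2. Immature basal against apical, main count 19, became 5 with DESeq2, while all genes called higher and lower went from 307 and 320 of 12294 to 185 and 146. Mature against immature basal, main count 16, became 59 with the replicate block, 8 with no filter (8 higher, 0 lower), 10 with DESeq2 (9 higher, 1 lower), 26 without called doublets and 37 with at least 4 Gnao1 UMIs. Genes called higher and lower were 1339 and 1251 of 10491 in the main fit. They were 1684 and 1551 with the block, 769 and 649 of 15428 with no filter and 709 and 612 with DESeq2. Without called doublets they were 1382 and 1310 of 10401, and with at least 4 Gnao1 UMIs 1402 and 1271 of 10223. Gnat3-positive against other cells, main count 2, became 0 with the replicate block, 14 at a mitochondrial limit of 10%, 4 with at least 1 Gnat3 UMI, 0 with at least 4, and, as alternatives chosen after seeing the data, 0 without cells holding Omp and 1 with both that and the 10% limit. Here genes called higher and lower went from 109 and 68 of 17842 to 1539 and 2655 of 19223 at the 10% limit. With at least 1 Gnat3 UMI they were 153 and 197 of 17842, and with both changes 1811 and 2927 of 18347. The causes were not tested. In checks of the named members under the alternatives that allowed a test, 173 values kept direction and call, 14 kept direction only, and 0 reversed. These members were chosen as changed alike in both libraries, mostly with few or no UMIs in the other group. A reversal was therefore hardly possible, and its absence is no sign of robustness.

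Leaving out 1 library allowed no test. The called members that moved alike in the library left numbered 15 to 15, 12 to 17, 14 to 16 and 0 to 2 in the 4 comparisons. They had been called from both libraries together, so these counts are no independent check. Levels ran from 1.94 to 6.51 CPM in precursors, 538 to 1341 in immature basal cells without Omp, 7213 to 9101 with Omp, 7975 to 10868 in mature basal VSNs, and 27.6 to 90.8 in Gnat3-positive cells. The share of cells with a member UMI was 49.5% after thinning in immature basal cells without Omp and 94.9% at the 10% limit in mature basal VSNs. Outside neurons without Omp, the level was 22.1 CPM at that limit and 30.8 CPM over all barcodes with at least 200 genes.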
